A study of Rattus norvegicus with 12 samples.

Results

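The miR-148 and miR-152 family comprises the mature miRNAs of the miR-148a, miR-148b and miR-152 hairpins. It was taken from the deposited count tables by name. Both arms of the 3 hairpins were listed, which gave 6 mature miRNAs of 639 in the table of model and normal libraries and the same 6 of 632 in the table of XLHZ and model libraries. Small RNA libraries had been prepared from gastric mucosa of rats, 4 for each of 3 groups. The XLHZ group received MNNG, a mutagen that alkylates DNA, for 24 weeks and Xianglianhuazhuo formula, a herbal preparation, for 60 days. The model group received the same MNNG exposure without the formula, used as a model of atrophic gastritis, in which gastric glands are lost. Per the labels' protocols the rats drank MNNG at 180 µg/ml, were gavaged with 2% sodium salicylate and went through cycles of 2 days of feeding and 1 day of fasting. The normal group was untreated. The labels give no strain, sex, age or vehicle gavage, and they do not say whether each library came from its own rat. The p-values below therefore measure the spread between libraries.

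A miRNA guides an Argonaute protein to messenger RNAs that pair with its seed, bases 2 to 8 of the mature strand, and lowers their translation and stability. The family is known in human and mouse cells for repressing the DNA methyltransferase DNMT1, and it has often been reported at lower levels in human gastric tumours than in adjacent mucosa. miR-148a is abundant in gastric epithelium, liver and pancreas. In the GRCr8 annotation of the rat genome Mir148b lies inside Copz1 and Mir152 inside Copz2, paralogous genes for a subunit of the COPI vesicle coat, whereas no annotated gene contains Mir148a.

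The 3p arms carry the shared seed, which is in capitals in these RefSeq sequences (GRCr8), so the 3 members can be compared base by base.
miR-148a-3p: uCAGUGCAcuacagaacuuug
miR-148b-3p: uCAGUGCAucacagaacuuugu
miR-152-3p: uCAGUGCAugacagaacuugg
With positions counted from 1 at the 5′ end, miR-148b-3p differed from it by C9U and U10C, and miR-152-3p by C9U, U10G and U20G. miR-152-3p differed from miR-148b-3p by C10G and U20G. All these differences lie outside the seed. Of 693 mature miRNA names in the RefSeq table, 3 (0.433%) had this seed, and they were these 3 arms. The 5p arms carry other seeds.
miR-148a-5p: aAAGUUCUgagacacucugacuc
miR-152-5p: aGGUUCUGugauacacuccgacu
The Mir148a hairpin is shown because the balance of its arms differed in 1 library, as described below. The capitals mark the 5p arm first and the 3p arm second.
Mir148a: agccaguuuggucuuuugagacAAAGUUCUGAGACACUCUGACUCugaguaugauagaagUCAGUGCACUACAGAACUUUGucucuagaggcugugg
The 3p arms differ by so few bases that reads with an error at a distinguishing base could be assigned to the wrong member, and no label or file header says how the authors' counting treated such reads.

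The 12 libraries held 9095260 to 11556061 counts each. The labelled tissue was gastric mucosa, and epithelial miRNAs were abundant in every library: the summed level of 5 arms of the miR-200 family was 72741 to 84622 CPM in XLHZ, 53840 to 85175 CPM in model and 67817 to 80017 CPM in normal libraries (CPM, counts relative to library size as edgeR's cpm function scales them, here with TMM factors over all 12 libraries). The libraries also held miRNAs of smooth muscle, whose source within the stomach was not tested. A smooth muscle list, miR-143 and miR-145 with both arms each and no member at 0, summed to 97611 to 277213 CPM in XLHZ, 145151 to 403505 CPM in model and 133246 to 219379 CPM in normal libraries. The highest sums were those of model libraries 2 and 3, whose miR-143-3p stood at 349207 and 307456 CPM. The family was low in these same model libraries, and whether the 2 observations are linked was not tested. Of the other tissues rich in miR-148a, the liver marker miR-122-5p reached 50.6 CPM in XLHZ, 97.6 CPM in model and 11.2 CPM in normal libraries, and the 3 pancreas markers (miR-216a-5p, miR-216b-5p and miR-217-5p) together reached 9.75 CPM in XLHZ, 7.38 CPM in model and 13.4 CPM in normal libraries.

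The family made up 1.21 ± 0.15% of all counts in XLHZ libraries, 0.912 ± 0.439% in model libraries and 1.22 ± 0.12% in normal libraries (mean ± SD, n = 4 each, here and throughout). Library by library, the share was 1.43%, 1.11%, 1.15% and 1.15% in XLHZ libraries 1 to 4, 1.13%, 0.740%, 0.390% and 1.39% in model libraries 1 to 4, and 1.22%, 1.32%, 1.04% and 1.28% in normal libraries 1 to 4. Model libraries 2 and 3 were below all others, and the other 2 model libraries lay within the range of the XLHZ and normal libraries together.

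miR-148a-3p was the most abundant member. It measured 6282, 5632, 5646 and 5240.2 CPM in XLHZ libraries 1 to 4, 5594, 3834, 1395 and 6367 CPM in model libraries 1 to 4, and 6052, 7018, 4650.5 and 5871 CPM in normal libraries 1 to 4. Thus 2 of the 4 model libraries lay inside the span of the normal libraries and 2 below it, and the groups overlapped. Its rank by mean level was 37 of 648 miRNAs in XLHZ libraries, 45 in model libraries and 37 in normal libraries.

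miR-152-3p, whose hairpin lies in Copz2, came next. Its levels were 4714, 4489, 4287 and 3946 CPM in XLHZ libraries, 4290.1, 4003, 2364 and 4653 CPM in model libraries and 4837, 5171, 3927 and 4783 CPM in normal libraries. Model library 3 was again the lowest of the 12, while model library 2 stood above normal library 3. miR-148a-3p exceeded miR-152-3p in 10 of the 12 libraries, the exceptions being model libraries 2 and 3. The levels of these neighbouring members did not overlap in the XLHZ group, but did in the model and normal groups.

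miR-148b-3p, the third member with the shared seed, was less abundant in every library, and the ratio of miR-148a-3p to it was 5.40 ± 0.22 in XLHZ, 4.90 ± 2.10 in model and 6.70 ± 1.08 in normal libraries. It had 1115, 1062, 1098 and 948 CPM in XLHZ libraries, 885, 711, 775 and 1047 CPM in model libraries and 847, 891, 872 and 912 CPM in normal libraries. All 4 XLHZ libraries lay above all 4 normal libraries, and the model libraries overlapped with both groups. Between XLHZ and normal libraries, 6.23% of all miRNAs tested did not overlap in one direction or the other. The normal libraries differed little from each other, with a coefficient of variation of 3.14%, against a median of 13.3% over the 148 miRNAs with a mean above 100 CPM.

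The 5p arms, usually discarded from the hairpin, were scarcer. miR-148a-5p measured 423 ± 43.7 CPM in XLHZ, 341 ± 104 CPM in model and 408 ± 63.3 CPM in normal libraries. miR-148b-5p measured 14.3 ± 1.18 CPM in XLHZ, 12.7 ± 2.06 CPM in model and 12.1 ± 0.713 CPM in normal libraries. miR-152-5p measured 9.21 ± 0.69 CPM in XLHZ, 8.85 ± 1.82 CPM in model and 9.04 ± 0.68 CPM in normal libraries, and for all 3 5p arms the groups overlapped. The last 2 arms rested on 62 to 174 counts per library. Below miR-152-3p the order was miR-148b-3p, miR-148a-5p, miR-148b-5p and miR-152-5p in 12 of 12 libraries. These are counts per miRNA of nearly equal length, 21 to 23 bases for the 5 arms with a RefSeq sequence.

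**Figure D1:**
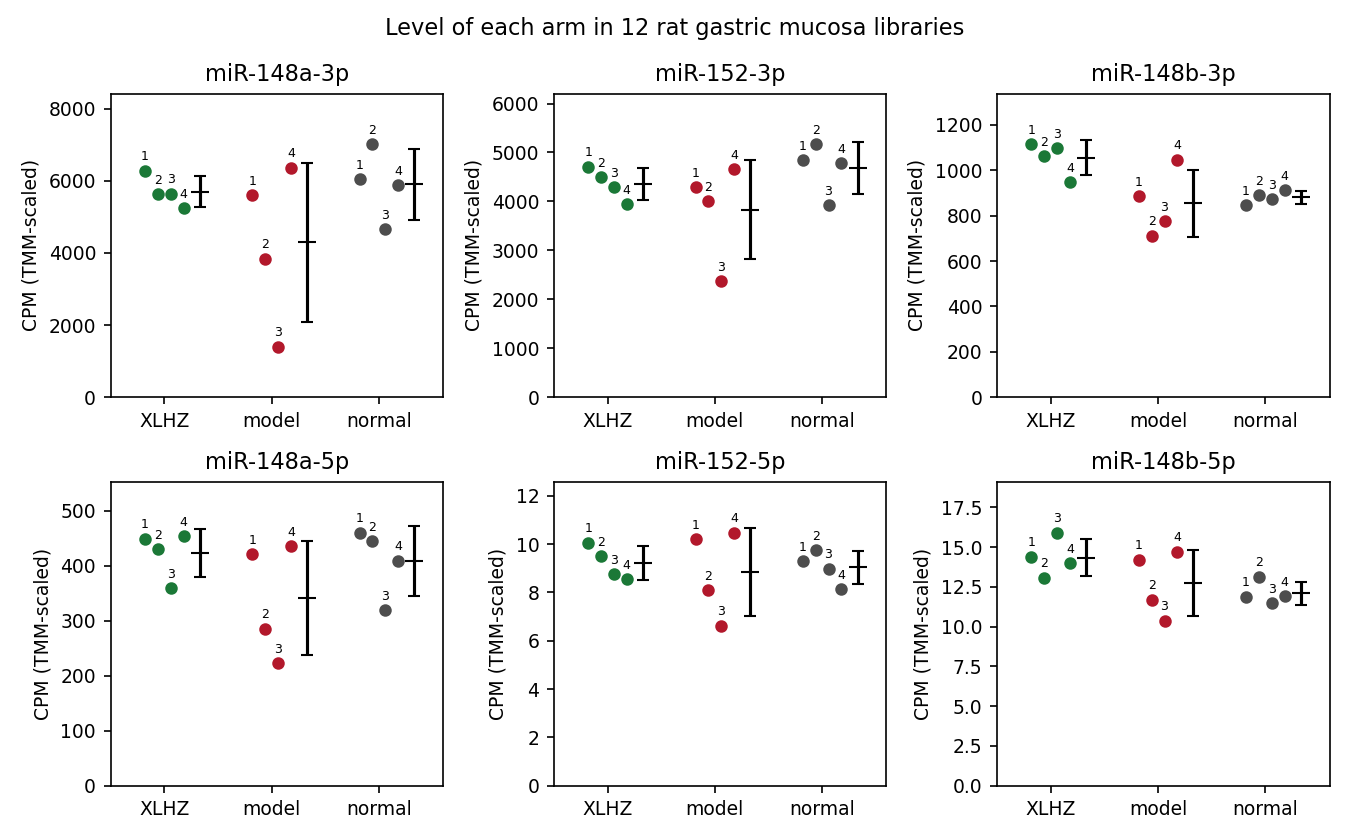
Levels of the 6 arms in CPM (vertical axes, from 0), with 1 point per library numbered 1 to 4 within the XLHZ, model and normal groups and the mean ± SD (n = 4) at the right of each group. miR-148a-3p ran from 1395 CPM in model library 3 to 7018 CPM in normal library 2, and the 4 XLHZ libraries were above the 4 normal libraries for miR-148b-3p. Of all miRNAs tested, 6.23% did not overlap between XLHZ and normal libraries.

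miR-148a-3p held a similar part of the family in all but 2 libraries. miR-148a-3p supplied 48.4% to 49.9% of the family's counts in XLHZ libraries, 29.2% to 50.8% in model libraries and 47.5% to 51.8% in normal libraries. In model library 3 the share was 29.2% (95% Wilson interval 28.8% to 29.6%, which covers counting error only), and in model library 2 it was 43.3% (43.0% to 43.7%). In model library 3 miR-152-3p made up 49.5% and miR-148b-3p 16.2% of the family, against 37.1% to 45.2% and 7.90% to 8.36% in the other model libraries. The ratio of miR-148a-3p to miR-152-3p was 1.25 to 1.33 in XLHZ libraries, 0.590 to 1.37 in model libraries and 1.18 to 1.36 in normal libraries. This ratio lies within a library, so no scaling between libraries enters it.

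**Figure D2:**
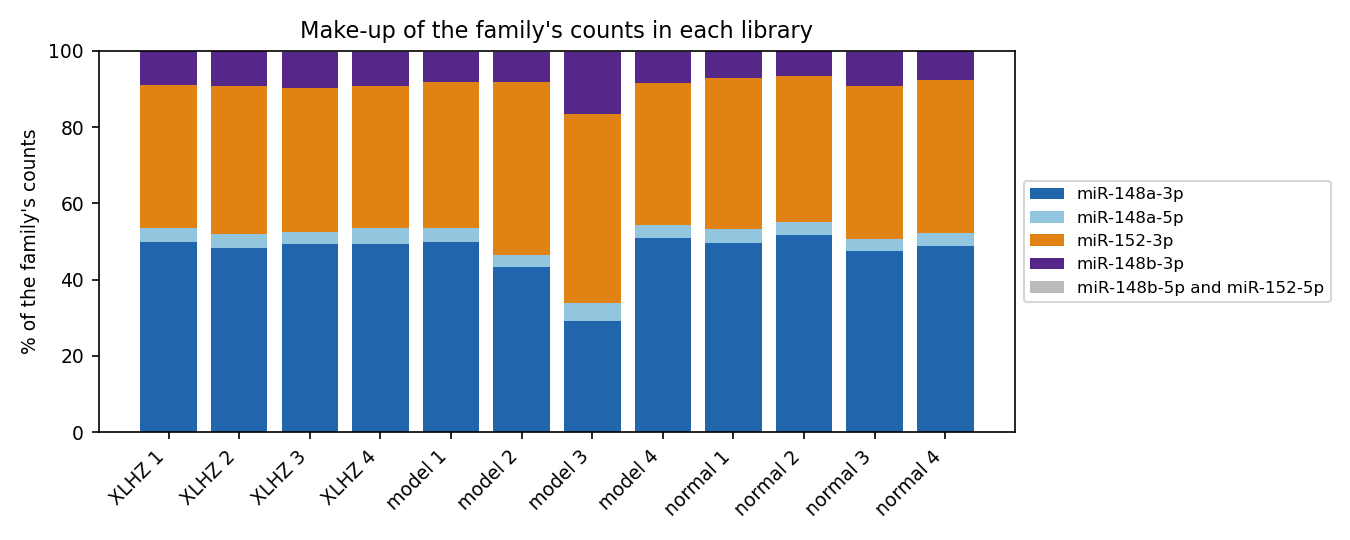
Percent of the family's counts (vertical axis) supplied by each arm in the 12 libraries, ordered as XLHZ, model and normal; miR-148b-5p and miR-152-5p together are too small to be seen. miR-148a-3p fell short of its usual share in model library 3 (29.2%) and model library 2 (43.3%).

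Whether the model treatment was accompanied by a change in the family was asked with model against normal libraries. MNNG, sodium salicylate and the feeding and fasting cycles were given together, so they cannot be told apart. None of the 6 members passed. miR-148a-3p averaged 4297 ± 2206 CPM in model and 5898 ± 972 CPM in normal libraries, with a log2 fold change of -0.46 (SE 0.38, 95% interval -1.32 to 0.41, adjusted p = 0.746 by Benjamini-Hochberg over 403 miRNAs in edgeR's quasi-likelihood test). miR-152-3p averaged 3828 ± 1011 CPM in model and 4680 ± 530.2 CPM in normal libraries (log2 fold change -0.29, interval -0.76 to 0.18), and miR-148b-3p averaged 855 ± 147 and 881 ± 27.6 CPM in model and normal libraries (-0.047, interval -0.41 to 0.31). Of the members, 5 had a negative and 1 a positive log2 fold change, and their median was -0.15 against -0.0072 over all miRNAs tested. edgeR, DESeq2 and limma-trend each called 0 of the 6, and 0 had an unadjusted p under 0.05 in any of the 3. Over all miRNAs edgeR called 0.248%, and 7.2% had an unadjusted p under 0.05, so the family's counts of 0 stood near the background. The groups overlapped for 6 of 6 members, while 3.47% of all miRNAs tested did not overlap. The interval of miR-148a-3p was the widest of the 6.

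The negative values rested largely on model libraries 2 and 3. These had the lowest family shares, so leaving them out was bound to raise the model mean. Without these 2 libraries the log2 fold change was 0.053 for miR-148a-3p, -0.034 for miR-152-3p and 0.17 for miR-148b-3p. Without model library 3 alone it was -0.11 for miR-148a-3p. Scaling by library totals instead of TMM factors shifted the median log2 fold change over all miRNAs to -0.12 in model against normal, 0.17 in XLHZ against model and 0.057 in XLHZ against normal libraries, so the values given are relative to TMM factors.

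Whether mucosa differed with the formula was asked with XLHZ against model libraries. None of the 6 members passed here either. miR-148a-3p averaged 5700.0 ± 431 CPM in XLHZ and 4297 ± 2206 CPM in model libraries, a log2 fold change of 0.38 (SE 0.38, interval -0.47 to 1.24, adjusted p = 0.819, edgeR over 402 miRNAs). miR-148b-3p averaged 1056 ± 75.2 CPM in XLHZ and 855 ± 147 CPM in model libraries (0.29, interval -0.073 to 0.64, adjusted p = 0.729, edgeR). miR-152-3p averaged 4359 ± 326 CPM in XLHZ and 3828 ± 1011 CPM in model libraries (0.17, interval -0.29 to 0.62). All 6 log2 fold changes were positive, with a median of 0.23 against 0.0057 over all miRNAs, while the model libraries are the same ones as in the comparison above. edgeR, DESeq2 and limma-trend each called 0 of the 6, and 0 had an unadjusted p under 0.05. Over all miRNAs edgeR called 0.249%, 4.23% had an unadjusted p under 0.05 and 1.25% did not overlap, against 0 of the 6 members. Without model libraries 2 and 3 the values were -0.12 for miR-148a-3p, -0.089 for miR-152-3p and 0.077 for miR-148b-3p. Leaving out the 2 model libraries lowest for the family was bound to lower these values.

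How far formula-treated, exposed mucosa lay from normal mucosa was asked with XLHZ against normal libraries, which were tighter. miR-148a-3p averaged 5700.0 ± 431 CPM in XLHZ and 5898 ± 972 CPM in normal libraries (log2 fold change -0.081, interval -0.35 to 0.19). miR-152-3p averaged 4359 ± 326 CPM in XLHZ and 4680 ± 530.2 CPM in normal libraries (-0.13, interval -0.36 to 0.089). miR-148b-3p averaged 1056 ± 75.2 CPM in XLHZ and 881 ± 27.6 CPM in normal libraries. Its log2 fold change was 0.23 (SE 0.086, interval 0.037 to 0.42), with an unadjusted p of 0.0246 and an adjusted p of 0.470 in edgeR over 401 miRNAs, so it did not pass. It was higher in 4 of 4 XLHZ libraries than in any normal library. It was the 1 member of 6 whose groups did not overlap, and 6.23% of all miRNAs tested did not overlap in one direction or the other. Of the 6 members, edgeR, DESeq2 and limma-trend each called 0 and each gave 1 an unadjusted p under 0.05. Over all miRNAs edgeR called 1.5% (0.998% higher and 0.499% lower in XLHZ), and 8.73% had an unadjusted p under 0.05. The median log2 fold change of the members was 0.0098, against -0.0040 over all miRNAs.

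**Figure D3:**
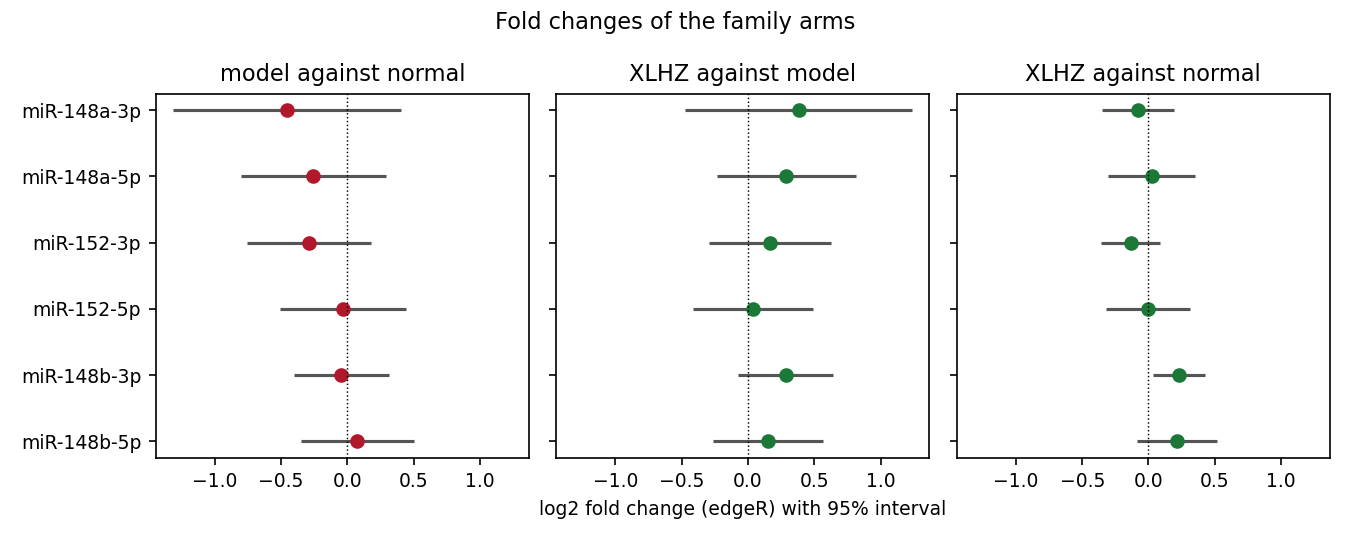
log2 fold changes from edgeR (horizontal axes) of the 6 arms in the 3 comparisons, with points for the estimate and lines for the 95% interval. Every interval covers 0 except that of miR-148b-3p in XLHZ against normal libraries (0.037 to 0.42), which did not pass after adjustment, and the intervals with the model group are wider.

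The ratio of a hairpin's arms is taken within a library, so it does not depend on scaling between libraries. In all 3 hairpins the 3p arm dominated. The 5p arm of miR-148a made up 6.67%, 7.10%, 5.98% and 7.96% of the hairpin's counts in XLHZ libraries 1 to 4, 7.00%, 6.92%, 13.8% and 6.40% in model libraries 1 to 4, and 7.06%, 5.96%, 6.41% and 6.51% in normal libraries 1 to 4. Model library 3 stood apart from the other 11 libraries. Its share rested on 2083 of 15120 counts, with a 95% Wilson interval of 13.2% to 14.3% that covers counting error only and not the spread between libraries. In that library miR-148a-3p was 4.01-fold below the median of the other 3 model libraries and miR-148a-5p was 1.89-fold below it. For miR-148b the 5p share was 1.34 ± 0.12% in XLHZ, 1.48 ± 0.14% in model and 1.36 ± 0.08% in normal libraries. For miR-152 it was 0.211 ± 0.005% in XLHZ, 0.236 ± 0.033% in model and 0.195 ± 0.024% in normal libraries. The groups overlapped for all 3 hairpins, and the share of all hairpins whose groups overlapped was not counted.

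**Figure D4:**
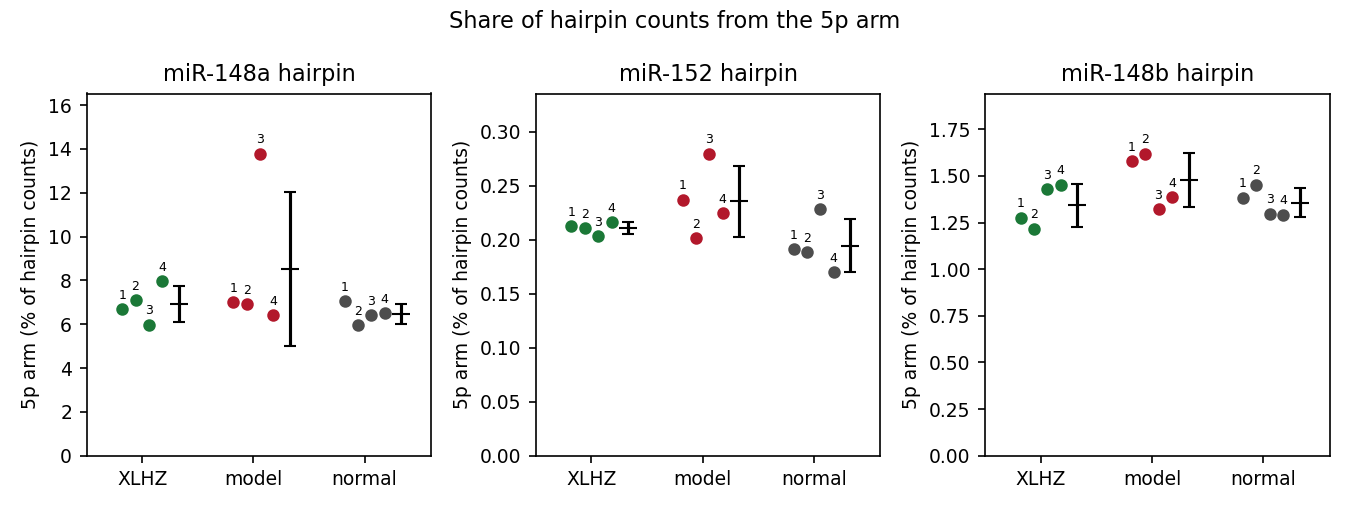
Percent of each hairpin's counts from its 5p arm (vertical axes, from 0), with 1 point per library numbered 1 to 4 and the mean ± SD (n = 4) at the right of each group. For miR-148a, model library 3 was at 13.8% and the other 11 libraries between 5.96% and 7.96%.

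The log2 ratio of 5p to 3p counts was compared between groups for every hairpin with enough counts in both arms. Between model and normal libraries it differed by 0.35 for miR-148a (interval -0.16 to 0.87, adjusted p = 0.483, limma over 123 hairpins), 0.28 for miR-152 (-0.040 to 0.59, adjusted p = 0.369, limma) and 0.12 for miR-148b (-0.17 to 0.41). None of the 3 passed and 0 had an unadjusted p under 0.05, with or without a trend of the variance on abundance. Over all hairpins limma called 0.813%, and 10.6% had an unadjusted p under 0.05. Without model library 3 the difference for miR-148a was 0.069. Between XLHZ and model libraries the differences were -0.26, -0.15 and -0.14 for miR-148a, miR-152 and miR-148b, and between XLHZ and normal libraries they were 0.097, 0.13 and -0.017. Again 0 of 3 passed in limma and 0 had an unadjusted p under 0.05 in either comparison. Over all hairpins limma called 0% in XLHZ against model and 2.44% in XLHZ against normal libraries, and 5.65% and 6.5% had an unadjusted p under 0.05.

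Model library 3 accounted for much of the spread of miR-148a-3p. Its coefficient of variation in the model group was 51.3%, the 13th highest of 148 miRNAs with a mean above 100 CPM, against a median of 24.2%. In XLHZ libraries it was 7.56% and in normal libraries 16.5%, with medians of 11.8% and 13.3%. Set against the median of the other 3 model libraries, miR-148a-3p was the third lowest of the 148 in model library 3, after miR-672-5p and miR-153-3p. miR-148a-5p and miR-152-3p were the 11th and 13th lowest, and miR-148b-3p the 45th. Other miRNAs also stood apart in that library, and the gastric and endocrine, squamous and miR-200 lists were split. Only the epithelial lists and the liver marker are given here, and differences in that library were not confined to them. Of the gastric and endocrine list, miR-375-3p had 5229 CPM there and 11252 to 13077 CPM in the other model libraries, miR-7a-5p had 4471 CPM against 4257 to 5147 CPM, and miR-7b had 104 CPM against 50.2 to 73.6 CPM. Thus miR-375-3p was low, miR-7a-5p lay within the range of the others and miR-7b was high. Of the squamous list, miR-205 had 1718 CPM against 3148 to 3711 CPM and miR-203b-3p had 3.10 CPM against 4.26 to 7.44 CPM, while miR-203a-3p had 1917 CPM against 784 to 983 CPM. Of the miR-200 family, miR-200c-3p had 1091 CPM against 1847 to 2562 CPM and miR-141-3p had 6508 CPM against 6499.6 to 13483 CPM. miR-200a-3p had 27527 CPM against 17712 to 27198 CPM, miR-200b-3p had 28734 CPM against 16371 to 24595 CPM, and miR-429 had 21314 CPM against 11411 to 17508 CPM. So 1 of these 5 arms was below the other model libraries, 3 were above them and 1 lay within their range. The 3 intestinal-type miRNAs were all above the other model libraries, with miR-192-5p at 11963 CPM against 3182 to 6760.2 CPM, miR-194-5p at 10868 CPM against 3591 to 7179 CPM, and miR-215 at 31.1 CPM against 2.84 to 8.50 CPM. The liver marker miR-122-5p had 97.6 CPM against 2.10 to 44.96 CPM. Whether these differences have a part in the low miR-148a-3p was not tested. In bulk mucosa, fewer cells of a type and less RNA per cell cannot be told apart.

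The miRNAs whose profile over the 12 libraries was most like that of miR-148a-3p were miR-153-3p, miR-672-5p, miR-185-5p, miR-375-3p and miR-200c-3p, in this order. Likeness was the root mean square difference between profiles of log2(CPM + 1), each centred on its mean, over the 147 other miRNAs with a mean above 100 CPM. It was 0.17 for miR-153-3p and 0.32 for miR-200c-3p, against a median of 0.65 and a value of 0.59 for a flat profile. All 5 were low in model library 3: miR-153-3p had 35.6 CPM there and 83.8 to 161 CPM in the other model libraries, and miR-672-5p had 36.7 against 201 to 246 CPM. Without that library, a setting chosen after seeing the data, 1 of the 5, miR-672-5p, was still among the 5 most alike, and the first places were taken by members of the family itself, miR-148a-5p (0.12) and miR-152-3p (0.14), where a flat profile would have scored 0.23. For miR-148b-3p the most alike was miR-340-5p (0.093), followed by the endothelial miR-126a-3p (0.12), against 0.19 for a flat profile. For miR-152-3p they were miR-99a-5p (0.16) and miR-148a-5p (0.16), against 0.28 for a flat profile. Without model library 3 miR-152-3p varied so little that a flat profile would have scored 0.13, close to the 0.11 of let-7g-5p, then the most alike.

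**Figure D5:**
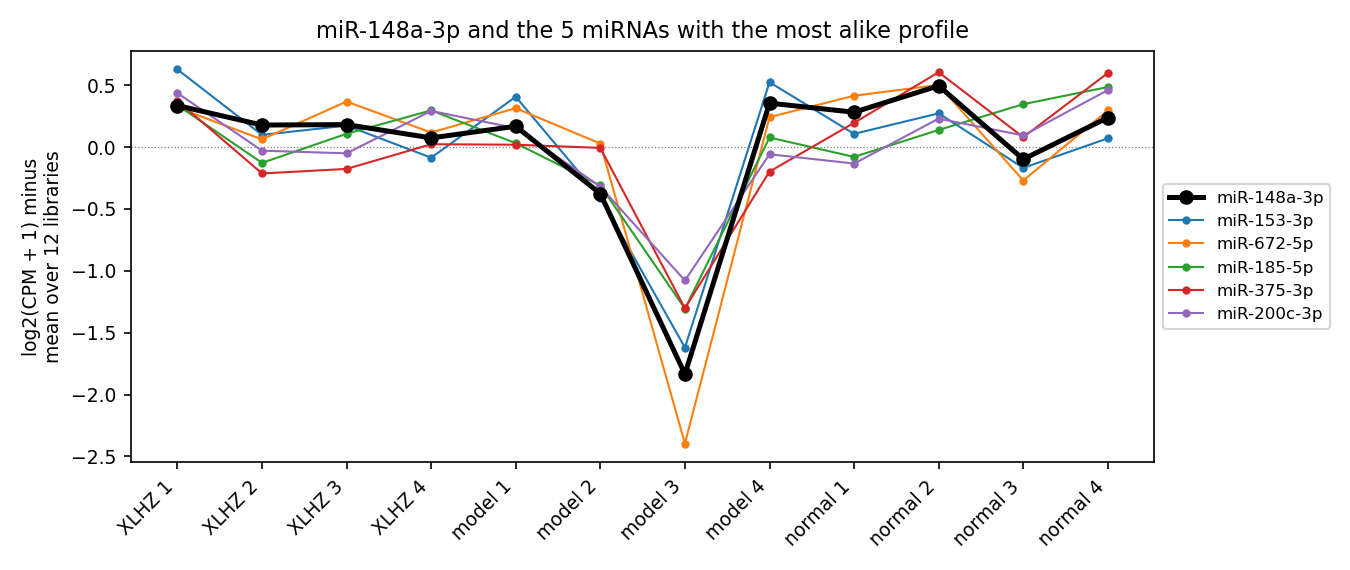
log2(CPM + 1) of miR-148a-3p (thick black line) and of the 5 miRNAs with the most alike profile, each minus its mean over the 12 libraries (vertical axis), by library in the order XLHZ, model and normal. All 6 lines have their lowest point at model library 3, where miR-148a-3p had 1395 CPM.

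Other miRNAs reported to act on DNA methyltransferases were set beside the family, from a list of miR-29a-3p, miR-29b-3p and miR-29c-3p (which target DNMT3A and DNMT3B) and miR-185-5p and miR-342-3p (reported to target DNMT1). All 5 were tested in each comparison, and edgeR, DESeq2 and limma-trend called 0 of them, with 0 at an unadjusted p under 0.05 in edgeR. Over all miRNAs edgeR called 0.248% in model against normal, 0.249% in XLHZ against model and 1.5% in XLHZ against normal libraries, and 7.2%, 4.23% and 8.73% had an unadjusted p under 0.05 in these comparisons, so counts of 0 in a list of 5 are near the background. Their median log2 fold changes were -0.042 in model against normal, 0.069 in XLHZ against model and -0.027 in XLHZ against normal libraries. miR-29a-3p hardly varied, with log2 fold changes of -0.042, 0.022 and -0.027 in these comparisons. miR-185-5p had 524 CPM in model library 3 and 1046 to 1369 CPM in the other model libraries, and its log2 fold changes were -0.52, 0.43 and -0.10, with adjusted p of 0.642, 0.743 and 0.809 in edgeR. Of the gastric and endocrine epithelium list (miR-375-3p, miR-7a-5p and miR-7b) 0 of 3 passed in any comparison by edgeR, DESeq2 or limma-trend, and 2, 0 and 1 had an unadjusted p under 0.05 in edgeR, beside the same 7.2%, 4.23% and 8.73% of all miRNAs. miR-375-3p measured 13096 ± 2570 CPM in XLHZ, 10601 ± 3672 CPM in model and 16898 ± 3140.1 CPM in normal libraries, with a log2 fold change of -0.67 in model against normal libraries (adjusted p = 0.605, edgeR). Of the 5 arms of the miR-200 family, 0 passed in any comparison by these 3 tools, and 0, 0 and 1 had an unadjusted p under 0.05 in edgeR. A list of 5 is too small for these counts to be told apart from those shares of all miRNAs.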

How the data were processed

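Per the labels' protocols, total RNA went into QIAseq miRNA libraries for Illumina sequencing. The submitters' processing notes name Bowtie and DESeq with no version. No source used here gives the genome build, the counting rule or whether molecular identifiers were collapsed. The authors deposited 2 tables of raw counts, with a row for each mature miRNA. The deposited CPM columns equal count over column total and were used for that check only. The 6 members had identical model counts in both tables; 1 miRNA that differed, miR-20b-3p, was left out where the tables were joined, which left 648.

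For each comparison, edgeR 4.0.16 in R 4.3.3 was run on the 8 libraries of its groups: filterByExpr (minimum count 10), TMM factors, glmQLFit and glmQLFTest, with calls at an adjusted p of 0.05. All 6 members passed the filter in each. The SE is the log2 fold change over the square root of F, and intervals use the fit's degrees of freedom. Arm ratios, log2((5p + 0.5)/(3p + 0.5)), were fitted with limma 3.58.1 over hairpins with a median of at least 10 counts in each arm. Alternatives included DESeq2 1.42.0. The procedure was tested on simulated counts. Libraries of a group differed by more than sampling noise (lowest chi-square over its degrees of freedom 172). Named miRNAs are all members, the 5 most alike to each 3p arm and the context lists. Members and lists were chosen with earlier results of these data known. The RefSeq table held mature sequences for 5 of the 6 members.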

Additional observations from a re-analysis of the deposited data

Results flagged for a closer look

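In the model group, the share of miR-148a counts from the 5p arm was 13.8% in model library 3 and 6.40% to 7.00% in the other 3 model libraries. This library lay far outside the others of its group: the gap to the nearest was 0.918 of the group's whole range, above Dixon's 95% critical value for 4 samples. It was the only flag among 27 sets of 4 libraries examined (6 arms and 3 arm shares in 3 groups), and chance flags about 1 set in 20. Of 123 hairpins, miR-148a had the fourth largest move towards its 5p arm in that library against the median of the other 3 model libraries (1.10 on the log2 scale), after miR-98 (1.42), miR-34c (1.30) and miR-26a (1.27). miR-152 was the 18th (0.32), and miR-148b moved the other way (-0.26).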

How the results depend on the processing

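No family member and no family arm ratio passed under any setting run, and over 459 member settings the lowest adjusted p was 0.285 (limma). Signs were less stable: 45 of the 459 turned. With upper-quartile factors these were, in model against normal, miR-148b-3p (0.016) and miR-152-5p (0.028) and, in XLHZ against normal, miR-148a-3p (0.0068) and miR-152-5p (0.078). On library totals miR-148b-5p turned in model against normal (-0.023) and miR-152-5p in XLHZ against normal (0.058). miR-152-5p, near 0 in XLHZ against normal, also turned with RLE factors (0.0025), without miR-143-3p (0.0028), with at least 50 counts in 4 libraries (0.0029), with DESeq2 (0.0020) and with all 12 libraries (0.024). Leaving out model libraries 2 and 3, an exclusion made with the data known, keeps 2 model libraries. Model against normal then turned for miR-148a-3p (0.053), miR-148a-5p (0.10), miR-148b-3p (0.17) and miR-152-5p (0.22). XLHZ against model then turned for miR-148a-3p (-0.12), miR-148a-5p (-0.069), miR-148b-5p (-0.061), miR-152-3p (-0.089), miR-152-5p (-0.22) and the miR-148a arm ratio (0.046). Model libraries 2 and 3 had the lowest family shares, so leaving them out was bound to raise the model levels. The other causes were not tested.

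Leaving out each library in turn gave these ranges where a sign turned. In model against normal they were -0.16 to 0.053 for miR-148b-3p, -0.0014 to 0.21 for miR-148b-5p and -0.12 to 0.14 for miR-152-5p. In XLHZ against model they were -0.044 to 0.28 for miR-152-3p, -0.12 to 0.14 for miR-152-5p and -0.38 to 0.028 for the miR-148a arm ratio. In XLHZ against normal they were -0.14 to 0.013 for miR-148a-3p, -0.043 to 0.11 for miR-148a-5p, -0.037 to 0.039 for miR-152-5p and -0.057 to 0.030 for the miR-148b arm ratio. For miR-148a-3p in model against normal the range was -0.70 to -0.11, and in XLHZ against model 0.056 to 0.64. The value of miR-148b-3p in XLHZ against normal stayed positive, from 0.21 to 0.32 over all settings.

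Centring profiles within groups kept 3 of the 5 most alike miRNAs for each 3p arm, and leaving out model library 3 kept 1 for miR-148a-3p, 3 for miR-148b-3p and 1 for miR-152-3p. Over all miRNAs the count called ran from 1 to 7 in model against normal (1 as reported; 7 with DESeq2), 0 to 1 in XLHZ against model (1 as reported) and 2 to 7 in XLHZ against normal (6 as reported; 2 with all 12 libraries). The labels do not say whether replicate numbers pair libraries. Correlations of same-numbered deviations ran from -0.34 to 0.47. In each comparison some libraries correlated best with their own number and others did not, which does not settle pairing. With the replicate number as a block, 0 members passed, and 1, 1 and 5 miRNAs were called. At these library totals miR-148b-5p and miR-152-5p rested on 62 to 174 counts per library.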
